A study of Mus musculus with 6 samples.

Results

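The S100 genes described here are S100a1, S100a3, S100a4, S100a6, S100a10, S100a11, S100a13, S100a14 and S100a16, that is, S100 genes other than the calprotectin pair S100a8 and S100a9. Members were taken as the probe sets annotated to 1 of these symbols alone, and a probe set is a group of short array probes read out together. Of the 9 genes 8 were measured in this way, with 10 probe sets, among 12393 genes on the array. S100a11 had only a probe set shared with other genes and is given no value. S100a1 and S100a10 each had 2 probe sets, and the one with the higher mean log2 value represents the gene. The arrays came from 344SQ, a metastatic KP line of mouse lung cancer in which Zeb1 is high; Zeb1 encodes a repressor of epithelial genes. There were 3 samples of 344SQ with inducible expression of the microRNA miR-34a and 3 samples of 344SQ with a control vector, each on its own Affymetrix array. Part of the labels speaks of primary tumours in mice and part of cultured cells. In tumour RNA, fewer cells of a type and less RNA per cell cannot be told apart. Whether the replicates were separate mice or cultures is not stated, so p-values reflect only the spread of these samples, which may be technical.

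S100 proteins are small calcium-binding proteins of the EF-hand type that act mostly as dimers. On binding calcium most of them open a surface that grips a partner protein, such as a myosin heavy chain or an annexin, and several are also released from cells and bind receptors. In tumours they are known for roles in cell movement and invasion, and S100a4 is named for metastasis. Most of the genes lie in 1 cluster, beside genes of skin barrier formation.

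The agent of the series is miR-34a, a microRNA induced by p53 in many cell types. Its RefSeq mature sequence is shown because it is what separates the groups, with the seed, bases 2 to 8, in capitals (GRCm38.p6, chr4:150068473-150068494, plus strand).
mmu-miR-34a-5p: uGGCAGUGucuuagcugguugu
The promoter of S100a4 is shown because S100a4 was the listed gene that passed the test. It covers 250 bases before to 50 after the start site (GRCm38.p6, chr3:90603520-90603819, plus strand), with TATAAA in capitals.
S100a4: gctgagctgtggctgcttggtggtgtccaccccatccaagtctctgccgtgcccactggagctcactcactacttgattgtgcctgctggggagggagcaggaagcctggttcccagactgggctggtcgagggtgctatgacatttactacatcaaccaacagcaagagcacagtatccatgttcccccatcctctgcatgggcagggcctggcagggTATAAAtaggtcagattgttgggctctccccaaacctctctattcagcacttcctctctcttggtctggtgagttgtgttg
S100a1 and S100a13 are transcribed away from each other from start sites 105 bases apart in the table, and the 204 bases that their promoters share are shown because both genes read from this stretch (GRCm38.p6, chr3:90514281-90514484, plus strand).
S100a1 and S100a13: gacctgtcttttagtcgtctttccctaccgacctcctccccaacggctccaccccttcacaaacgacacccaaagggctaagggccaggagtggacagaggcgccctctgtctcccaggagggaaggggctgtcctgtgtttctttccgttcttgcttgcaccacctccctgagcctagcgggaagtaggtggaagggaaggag

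Of the 9 genes 7 had 1 or more promoters in the RefSeq table, 11 in all, with none for S100a10 and S100a14. Motifs were searched on both strands: TATAAA, the core of a TATA box; CACCTG, an E2 box of the kind that ZEB and SNAI factors bind; and TGANTCA, the AP-1 motif. No promoter of these genes held matches of different motifs, so no matches overlapped. TATAAA was found in the S100a4 promoter, starting 31 bases before the start site, and at 1 of the 4 start sites of S100a3, against 13.6% of the 32851 promoters of the same length. CACCTG was found at 2 of the 4 start sites of S100a3 and at 1 of the 2 of S100a16, against 20.2% of all promoters. TGANTCA was found in the promoter of S100a11 and at 1 start site of S100a16, against 7.81% of all promoters. The shared stretch of S100a1 and S100a13 held none of these letters.

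Vector 1 stood apart from the other arrays, at -43.33 on principal component 1 (61% of the variance), against 16.25 to 21.66 for the miR-34a arrays and -5.42 and -8.75 for vector 2 and vector 3. Among the listed S100 genes vector 1 was the highest of the vector arrays in 7 of 8, S100a10 being the exception, and each change is therefore given with and without it. Array medians ran from 465.7 to 482.2 and lower quartiles from 166.7 to 176.9 intensity units. No detection calls were used, so values near the lower quartile, such as those of S100a3 and S100a14 and, among other S100 genes, of S100a5, S100b and S100a9 in miR-34a samples, are not told apart from background.

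The groups were compared to ask whether S100 transcripts differed between 344SQ samples with miR-34a and with vector. S100a4 fell, with values in miR-34a samples 1.93-fold lower than in vector samples. S100a1 and S100a10 had values 1.27-fold and 1.20-fold higher in miR-34a samples and did not pass the test, and S100a6, S100a13, S100a3, S100a14 and S100a16 did not pass either. Thus 1 of 8 genes (12.5%) passed an adjusted p under 0.05, in the downward direction, where 11.7% of all genes passed in either direction, 6.5% as higher and 5.25% as lower. Values of the groups did not overlap in 3 of 8 (37.5%), against 34.9% of all genes. Both shares are near the background, so these counts do not set the listed genes apart. Genes passing over the whole array numbered 1456 with all arrays and 226 to 2133 when 1 array was left out, lowest, at 226, when miR-34a 3 was left out and next lowest, at 255, when miR-34a 1 was. The median log2 change of the 8 was 0.0057, against 0.024 over all genes.

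**Figure D1:**
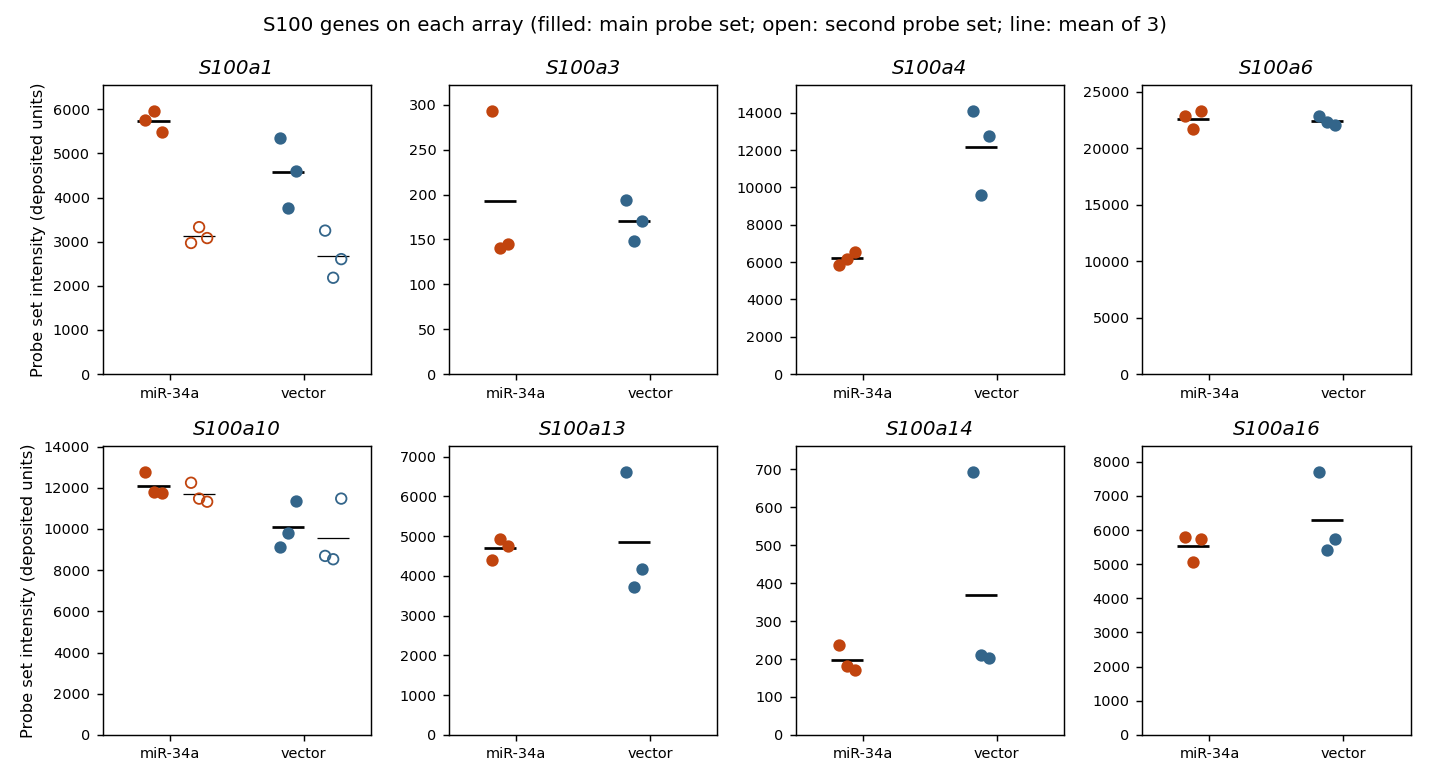
Deposited probe set intensity (linear, each vertical axis from 0) of the 8 measured S100 genes on each array, miR-34a left and vector right; points are arrays 1 to 3 from left to right, filled for the main probe set and open for the second one, and lines are means of 3. The miR-34a points of S100a4 lie between 5869 and 6566, all below the vector points, and the highest point of S100a14 is vector 1 at 693.

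S100a4, also called metastasin or Mts1, binds the heavy chain of non-muscle myosin and loosens its filaments; it is made by many invasive tumour cells, fibroblasts and macrophages. Its intensity was 5869, 6162 and 6566 in the miR-34a samples and 14085, 9593 and 12754 in the vector samples. Every miR-34a sample lay below every vector sample, and the vector samples were spread more widely, by 1.47-fold from lowest to highest against 1.12-fold in miR-34a. In log2 units the mean was 12.60 ± 0.081 in miR-34a and 13.55 ± 0.287 in vector (SD, n = 3 each), a change of -0.95 ± 0.147 (SE; limma adjusted p = 0.0119). Its 95% interval ran from -1.30 to -0.61. Of all genes 0.896% had a lower change. Without vector 1 the change was -0.84 (limma adjusted p = 0.00584). The call was lost without miR-34a 1, where the change was -0.91 (limma adjusted p = 0.064), and without miR-34a 3, where it was -0.99 (limma adjusted p = 0.0565). S100a4 had 1 probe set, so no second measure of the gene was at hand.

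S100a6, or calcyclin, is a marker of growing cells whose binding protein Cacybp takes part in protein breakdown. Its intensity was 22837, 21656 and 23270 in the miR-34a samples and 22883, 22325 and 22056 in the vector samples. The groups overlapped, and all 6 values lay within a narrow band. The change was 0.010 ± 0.074 in log2 (SE; limma adjusted p = 0.949), with a 95% interval from -0.16 to 0.19, the narrowest of the 8 genes, and without vector 1 the change was 0.025. The highest value of any probe set on the 6 arrays ran from 28267 to 30253, and whether the S100a6 signal was limited by the range of the arrays was not tested. S100a6 lies 2 genes from S100a4 in the cluster, and the 95% intervals of the changes of both genes do not meet, though the difference between them was not tested.

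S100a10, or p11, is unusual in the family in that it does not bind calcium, and it joins annexin A2 at the cell surface, where the complex binds plasminogen. Its main probe set read 12770, 11790 and 11733 in the miR-34a samples and 9115, 9792 and 11351 in the vector samples. The groups did not overlap, though vector 3 came close to the miR-34a samples. The change was 0.27 ± 0.103 in log2 (SE; limma adjusted p = 0.142; 95% interval 0.025 to 0.51), and 0.20 without vector 1. The second probe set read 12247, 11475 and 11325 in the miR-34a samples and 8692, 8531 and 11476 in the vector samples, so that here vector 3 lay within the miR-34a range. Its change was 0.30 ± 0.128 in log2 (SE; limma adjusted p = 0.171 over all probe sets). Neither probe set passed the test, where 13.7% of all probe sets tested on their own did.

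S100a1 is best known from heart and skeletal muscle, where it acts on calcium pumps and release channels, and S100a13 takes part in the release of Fgf1 and interleukin 1 alpha by a route outside the classical secretory pathway. The main probe set of S100a1 read 5748, 5957 and 5477 in the miR-34a samples and 5354, 3760 and 4593 in the vector samples. All miR-34a samples lay above all vector samples, vector 1 by the smallest margin. The change was 0.34 ± 0.133 in log2 (SE; limma adjusted p = 0.148; 95% interval 0.026 to 0.65). Without vector 1 it was 0.46 and passed (limma adjusted p = 0.0248). The second probe set read 2971, 3330 and 3083 in the miR-34a samples and 3251, 2183 and 2605 in the vector samples, and vector 1 lay inside the miR-34a range. Its change was 0.24 ± 0.146 in log2 (SE; limma adjusted p = 0.332 over all probe sets).

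S100a13 read 4406, 4935 and 4745 in the miR-34a samples and 6611, 3727 and 4175 in the vector samples. Vector 1 was the highest array and the other vector samples were the lowest, so the miR-34a samples lay between them. The change was 0.0013 ± 0.204 in log2 (SE; limma adjusted p = 0.998), with a 95% interval from -0.48 to 0.48. Without vector 1 it was 0.25 (limma adjusted p = 0.123). For both genes that share the promoter stretch above, vector 1 was the highest and vector 2 the lowest vector sample, as was also the case for S100a3, S100a4 and S100a16. The ratio of vector 1 to the mean of vector 2 and vector 3 was 1.67 for S100a13 and 1.28 for the main probe set of S100a1.

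S100a14 is found mainly in epithelia, and S100a3 is a protein of the hair cuticle. S100a14 read 237, 182 and 171 in the miR-34a samples and 693, 209 and 203 in the vector samples. The high vector mean came from vector 1, while vector 2 and vector 3 lay inside the miR-34a range. The change was -0.63 ± 0.436 in log2 (SE; limma adjusted p = 0.398), and -0.074 without vector 1 (limma adjusted p = 0.757). S100a16 read 5790, 5080 and 5745 in the miR-34a samples and 7704, 5428 and 5740 in the vector samples. Again vector 1 alone lay above the miR-34a samples. The change was -0.17 ± 0.144 in log2 (SE; limma adjusted p = 0.501; 95% interval -0.51 to 0.17), and -0.014 without vector 1. S100a3 read 293, 140 and 145 in the miR-34a samples and 193, 148 and 170 in the vector samples. The groups overlapped, with miR-34a 1 the highest array of all. The change was 0.092 ± 0.262 in log2 (SE; limma adjusted p = 0.859), 0.18 without vector 1 and -0.23 without miR-34a 1.

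**Figure D2:**
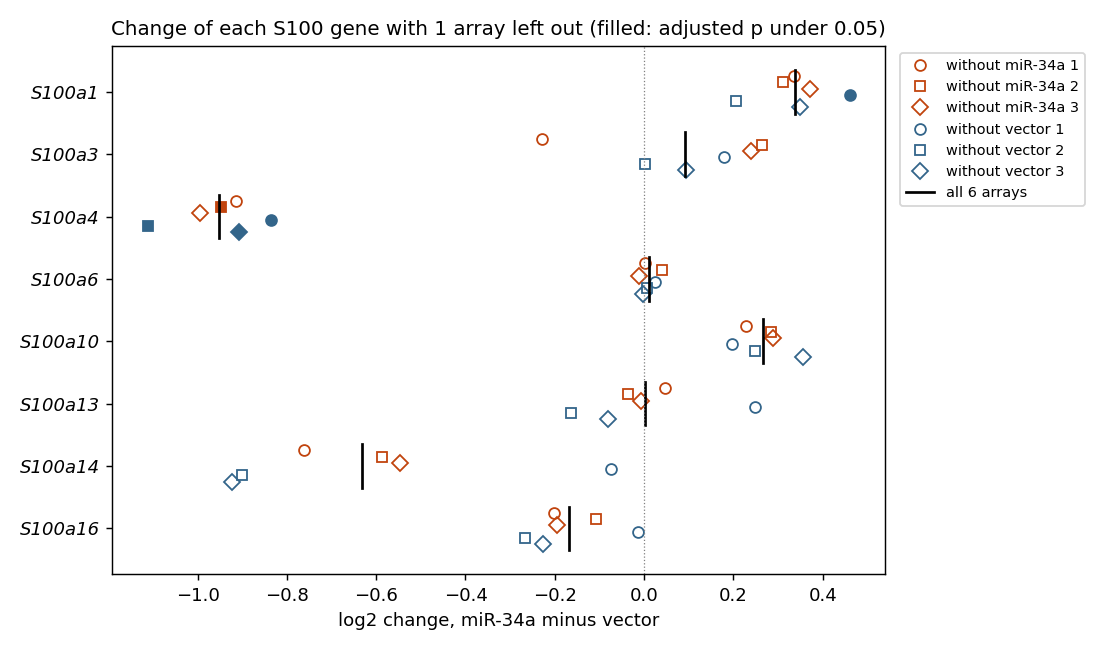
Log2 change, miR-34a minus vector, of each measured S100 gene when 1 array was left out (symbols, filled where the limma adjusted p was under 0.05) and over all 6 arrays (vertical bars). S100a4 stayed between -1.11 and -0.84 and was called in 4 of the 6 fits; S100a14 moved to -0.074 and S100a1 to 0.46 without vector 1.

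The other S100 genes with a probe set of their own were S100a5, S100a8, S100a9, S100b and S100g, 5 of 9 listed. S100a9, which with S100a8 forms calprotectin of neutrophils and myeloid cells, fell and was the single called gene among them. Its intensity was 251, 186 and 231 in the miR-34a samples and 5270, 1385 and 868 in the vector samples. Its fitted change was -2.98 in log2 (limma adjusted p = 0.0235) and -2.23 without vector 1. Its miR-34a values lay near the lower quartiles of the arrays and are not told apart from background, so the size of the change is not settled. The call of S100a9 was lost without any 1 of the miR-34a samples (limma adjusted p from 0.0781 to 0.0947), and with all arrays under limma's robust variance and trend (limma adjusted p = 0.0721). S100a8 changed by -1.41 (limma adjusted p = 0.149), and without vector 1 by -0.68 and passed (limma adjusted p = 0.00326). S100b, a marker of Schwann and glial cells, changed by -0.13 with its main probe set and by 0.045 with its second one. S100a5 changed by -0.11, and neither gene passed. S100g, a calcium carrier of gut and kidney epithelium, read 444, 455 and 448 in the miR-34a samples and 119, 508 and 830 in the vector samples. Here vector 1 was the low array, and the change of S100g was 0.25 over all arrays and -0.52 without vector 1.

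**Figure D3:**
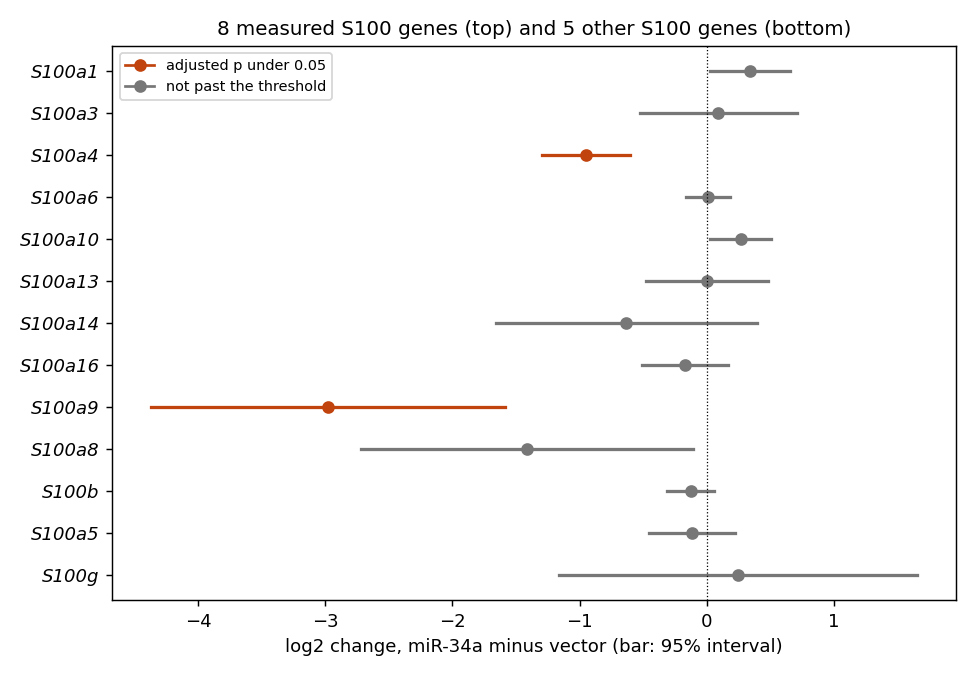
Log2 change, miR-34a minus vector, with its 95% interval for the 8 measured S100 genes (top) and 5 other S100 genes (bottom); colour marks a limma adjusted p under 0.05. S100a4 at -0.95 and S100a9 at -2.98 are coloured, and the interval of S100a6 is the narrowest among the 8.

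The proteins that S100 proteins bind were examined as a list of 24 genes, of which 21 were measured. Cacybp passed as lower and 0 genes as higher, where 5.25% of all genes passed as lower and 6.5% as higher. The median log2 change was 0.064, against 0.024 over all genes. Cacybp, the calcyclin-binding protein gene, read 2078, 2158 and 2158 in the miR-34a samples and 3238, 2966 and 3427 in the vector samples. The groups were well apart, with a change of -0.59 ± 0.084 in log2 (SE; limma adjusted p = 0.01), and the call was lost without miR-34a 1 (limma adjusted p = 0.0594) or miR-34a 3 (limma adjusted p = 0.0556). Sugt1, a chaperone partner that S100a6 also binds, changed by -0.034 and did not pass. Myh9, the non-muscle myosin heavy chain gene that S100a4 acts on, read 8054, 7384 and 7483 in the miR-34a samples and 5608, 6546 and 5911 in the vector samples. All miR-34a samples lay above all vector samples. Its change of 0.34 ± 0.09 in log2 missed the threshold (SE; limma adjusted p = 0.0519), and over the alternatives run the adjusted p of Myh9 lay on both sides of it. Leaving out vector 1 or vector 2 gave 3 called genes in the list, leaving out miR-34a 2 gave 2, and leaving out miR-34a 1 or miR-34a 3 gave 0.

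Anxa2, the annexin that pairs with S100a10, changed by 0.036 ± 0.079 in log2 and Ahnak, a giant scaffold protein that binds this pair, by 0.061 ± 0.099 (SE), and neither passed. The value of Ahnak is that of its main probe set. With the mean of all its probe sets the change was -0.40 (limma adjusted p = 0.141), so its probe sets differed. Plat, the tissue plasminogen activator gene, had a change of 1.14 ± 0.389 in log2 (SE; limma adjusted p = 0.106), and 0.65 without vector 1, where it passed (limma adjusted p = 0.0165). Anxa6, a membrane-binding annexin that S100a6 and S100a1 can bind, had a change of 1.27 ± 0.383 in log2 (SE; limma adjusted p = 0.0781). Without vector 1 it was 0.79 and passed (limma adjusted p = 0.0108), and without vector 2 it was 1.63 and passed (limma adjusted p = 0.0341). Of the receptors of released S100 proteins, Ager, which encodes RAGE, had a change of 0.31 in log2 and Tlr4 of 0.098, and neither passed. Fgf1, whose release S100a13 aids, had a change of 0.088, or -0.25 with the mean of all its probe sets, and did not pass. When the fit weighted the arrays by their quality, 6 partner genes passed, of which 4 were higher, Myh9 (limma adjusted p = 0.0121), Anxa6 (limma adjusted p = 0.00878), Plat (limma adjusted p = 0.0266) and Ager (limma adjusted p = 0.0438). A list of 22 other calcium-binding genes, chiefly of the EF-hand type, had 17 measured members. Of these Sdf4, a calcium-binding protein gene of the Golgi, rose by 0.50 ± 0.08 and Efhd2, an EF-hand gene, by 0.39 ± 0.09 in log2 (SE). These 2 passed as higher and 0 passed as lower, where 11.7% of all genes passed in either direction. Changes were above 0 in 11 genes and below 0 in 6, and the median was 0.05. In this list 1 member passed when vector 3 or miR-34a 2 was left out, and 0 passed when miR-34a 1 or miR-34a 3 was.

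**Figure D4:**
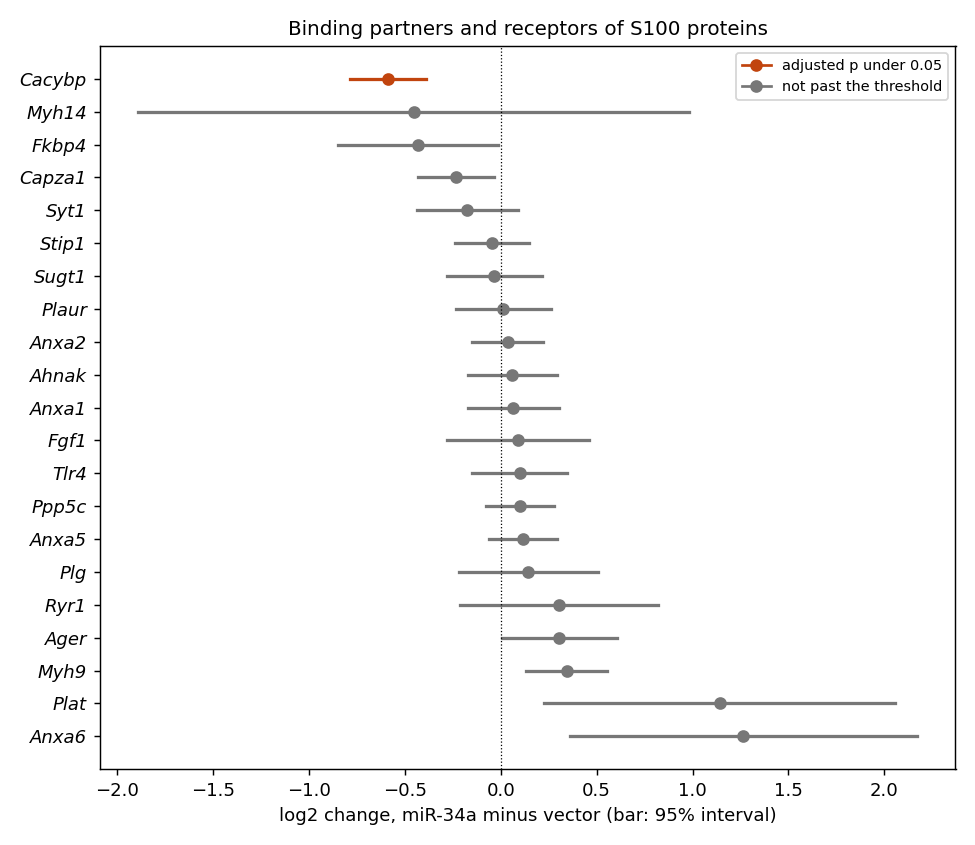
Log2 change, miR-34a minus vector, with its 95% interval for the 21 measured binding partners and receptors, ordered by change; colour marks a limma adjusted p under 0.05. Cacybp at -0.59 is the coloured gene, and Anxa6 at 1.27 and Plat at 1.14 have the largest values above 0 with wide intervals.

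From S100a1 to S100a10 the RefSeq table of mouse chromosome 3 lists 101 genes, of which 40 were measured. S100a4 and S100a9 passed as lower and 0 genes as higher, where 5.25% of all genes passed as lower and 6.5% as higher. The 2 of 40 are near the share of lower genes, so this count does not set the interval apart. The median log2 change was -0.024, against 0.024 over all genes. The measured genes nearest S100a4 did not pass: S100a3 on one side had a change of 0.092, and S100a5 and S100a6 on the other had changes of -0.11 and 0.010. The 9 measured Sprr genes, which encode small proline-rich proteins of the keratinocyte envelope, ran from -1.01 for Sprr1a to 0.22 for Sprr2h, and 0 passed. The 11 measured Lce genes, of the late cornified envelope, ran from -0.22 to 0.10, and 0 passed. The remaining 9 genes, Lor, Ivl, Smcp, 2310050C09Rik, Crct1, Flg, Hrnr, Rptn and Tchh, ran from -0.29 for Ivl to 1.30 for Tchh, and 0 passed.

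**Figure D5:**
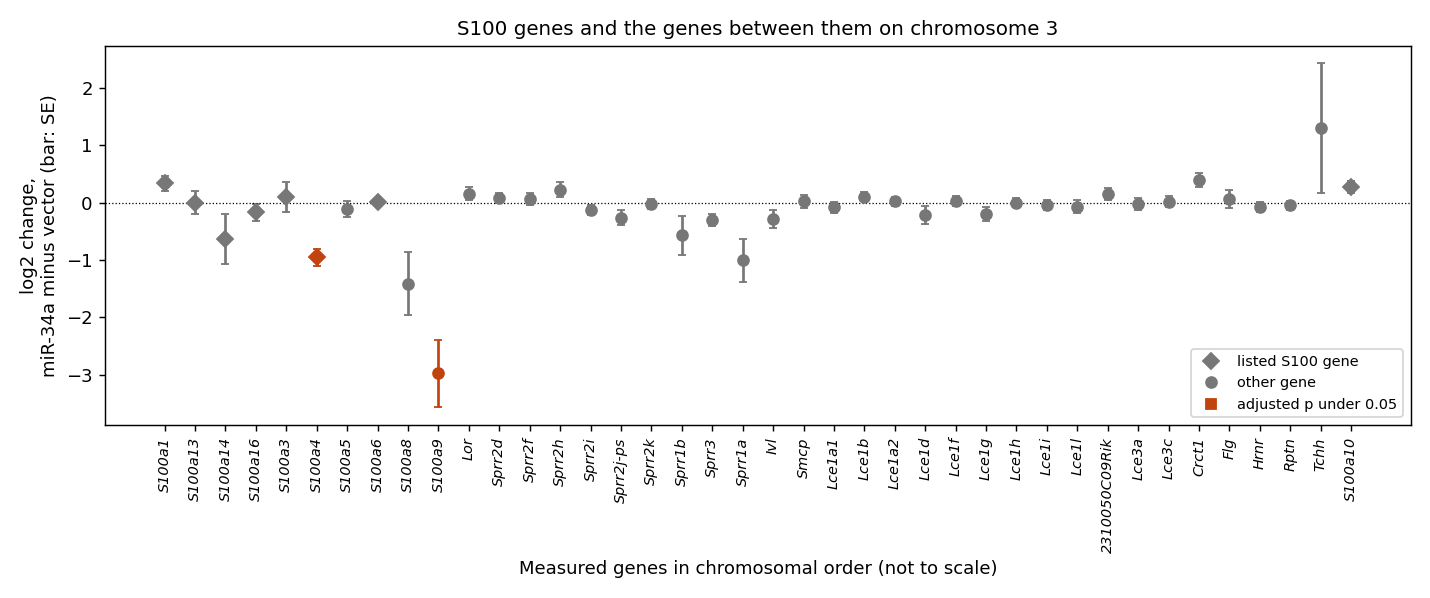
Log2 change, miR-34a minus vector, with SE for the 40 measured genes from S100a1 to S100a10 in chromosomal order, not to scale; diamonds are the listed S100 genes and colour marks a limma adjusted p under 0.05. S100a4 at -0.95 and S100a9 at -2.98 are coloured, with S100a5 and S100a6 near 0 between them.

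The profile of S100a4 over the 6 arrays was set against that of every gene outside the S100 family, each centred on its own mean, by the root mean square difference in log2. Genes chosen in this way have changes and an order of arrays like those of S100a4 by construction, so their values are a description. The closest were Ola1 at 0.059, Rpf1 at 0.071, Magt1 at 0.076, Slc25a24 at 0.087 and Exosc7 at 0.093. Ola1, an ATPase gene, read 1246, 1415 and 1342 in the miR-34a samples and 2964, 2177 and 2801 in the vector samples. As with S100a4, its vector 2 value was the lowest of the vector samples and vector 1 the highest, and its change was -0.97 ± 0.13 in log2 (SE). The changes of the other 4 ran from -1.04 to -0.78.

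Some markers of other cells passed the test beside S100a4, which fibroblasts and macrophages also express. Over all genes 11.7% passed, 6.5% as higher and 5.25% as lower, and the counts of the cell type lists stand beside these shares. Of 13 fibroblast genes 3 were higher and 0 lower, with a median of 0.70: Col6a1 at 0.70, Col6a2 at 0.78 and Thy1 at 1.73. Their summed intensity was 53006 to 74000 in miR-34a samples and 23526 to 59675 in vector samples, with vector 1 the lowest. Of 14 macrophage genes 3 were higher, C1qb at 1.13, Fcgr1 at 0.98 and Fcer1g at 0.48, and Mrc1 at -0.99 was lower. The macrophage sum was 30987 to 35727 in miR-34a samples and 21357 to 31071 in vector samples. On every array C1qb, Mrc1 and Fcer1g read above the array medians, at 745 or more, and Fcgr1 read 176 to 598. Whether the RNA came from tumours or cultures was not tested. Of 11 neutrophil genes, S100a8 and S100a9 among them, 0 were higher and 1 was lower, a count near the share over all genes. Their sums were 4203 to 4743 in miR-34a samples and 5548 to 14946 in vector samples. The highest sum, in vector 1, includes S100a9 at 5270 and S100a8 at 2745, so it is no separate reading of neutrophils. With 1 array left out, 1 fibroblast gene passed without miR-34a 1 and 0 without miR-34a 3. Of the macrophage genes 1 passed, as lower, without vector 3 or any 1 of the miR-34a samples. Of the neutrophil genes 3 passed as lower without vector 1, and 0 without any 1 of the miR-34a samples. In these lists 0 genes were at the lowest value of the table on all arrays. The part of these cells in the change of S100a4 was not tested.

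Of 19 epithelial genes 3 passed as higher and 0 as lower, the tight junction gene Ocln at 1.98, Spint1 at 1.37 and Marveld2 at 0.49, beside S100a14, which did not pass. The list did not move as a whole: 11 genes had changes above 0 and 8 below, with a median of 0.077. Without vector 2, 1 epithelial gene passed as lower. The same count passed as lower with array weights, limma's robust variance and trend, every probe set on its own, or a threshold of 0.10. The epithelial sum was 91210 to 96994 in miR-34a samples and 85465 to 99945 in vector samples. Of 9 genes of mesenchymal tumour cells 1 was higher, the transcription factor gene Twist1 at 1.56. Twist1 read 64, 172 and 175 in the vector samples, near or below the lower quartiles of the arrays, so the size of its change is not settled. Without vector 1, 3 of the mesenchymal genes passed, 2 as higher and 1 as lower, and 0 passed without any 1 of the miR-34a samples. Of 12 keratinocyte and hair follicle genes 0 passed, with Ivl at -0.29 and Krt14 at -0.43, and their sum was 4644 to 5183 in miR-34a samples and 4776 to 6763 in vector samples. In vector 1, where S100a14 read 693, the sums of the keratinocyte, epithelial, neutrophil and Schwann cell lists were each the highest of the 3 vector samples, and the part of these cells in the value of S100a14 was not tested. Of 11 skeletal muscle genes, beside S100a1, 0 passed and all 11 had values above 0, with Ckm at 0.37 and Myl1 at 0.83. Their sum was 2775 to 7522 in miR-34a samples and 2616 to 3248 in vector samples, and its part in the values of S100a1 was not tested. Without miR-34a 2, 4 of the muscle genes passed as higher. Of 5 measured nerve and Schwann cell genes, S100b among them, Pmp22 at 0.55 was higher and Ncam1 at -0.53 did not pass. Changes were above 0 in 3 of the 5 and below 0 in 2. In this list 2 genes passed without vector 1, and 0 without vector 3, miR-34a 1 or miR-34a 3. Of 9 measured T and NK cell genes 0 passed, with Cd3d at 0.48 and Cd3g at 0.50, and of 8 endothelial genes 0 passed, with Emcn at -0.25 and Tek at 0.23.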

How the data were processed

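Per the labels' protocols, biotin-labelled RNA was hybridised to Affymetrix mouse arrays, 1 per sample. The values are the intensities on a linear scale that the authors deposited; how these were summarised and normalised is not stated in the labels. The table holds 22690 probe sets, of which 64 were controls, and 20393 had 1 symbol, 691 several and 1606 none in the platform annotation. Symbols were updated through Entrez identifiers with the RefSeq table of GRCm38.p6.

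The scale of analysis was log2(intensity + 16), on which changes of low genes come out too small. Each gene was represented by its probe set with the highest mean log2 value and tested two-sided in limma 3.58.1 (lmFit, eBayes; R 4.3.3), with Benjamini-Hochberg adjustment over 12393 genes and a threshold of 0.05. Signed changes are miR-34a minus vector. The fit was tested on simulated data with 200 changed genes. It recovered 21.5% of them at a log2 change of 0.5, 93% at 1 and 98% at 2. A gene with a small change that did not pass may therefore still have changed. Simulated errors were independent, with no array set apart as vector 1 was. The precision is limited by 3 arrays per group. Groups come from the sample titles.

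The members and lists were chosen with earlier results of these data known. Named were all members, the other S100 genes, the genes between the members, the called members of each list up to 6 (or the 2 with the smallest p), and the genes closest to S100a4; Sugt1, Anxa2, Ahnak, Plat, Anxa6, Ager, Tlr4 and Fgf1 were added for their known binding, with their values seen. A planned comparison of protein sequences was not made, since no protein table was used here. Promoter and miRNA sequences are RefSeq's. Python 3.11.15 and matplotlib 3.10.9 drew the figures.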

Additional observations from a re-analysis of the deposited data

How the results depend on the processing

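S100a4 kept its direction under the 16 alternatives run on single genes, with changes of -1.11 to -0.84 when 1 array was left out and adjusted p from 0.00132 to 0.064 over all of them. Listed S100 genes passing numbered 0 to 2 when 1 array was left out and 2 with array weights, where S100a1 was added. Genes passing over the whole array numbered 2782 of 20380 when every probe set was tested on its own, 3238 with array weights, 2422 at an adjusted p under 0.10, 522 with the replicate block and 226 to 2133 when 1 array was left out. With array weights 6 binding partners passed, against 1, and 2 each of the neutrophil, mesenchymal and Schwann cell genes, against 1 each. Also with array weights 1 T and NK cell, 2 muscle and 2 endothelial genes passed, against 0 each. Under robust variance and trend 2 binding partners passed, as with quantile normalization, the lowest genes left out, an offset of 64, the mean of all probe sets or every probe set on its own, and 0 neutrophil, 0 mesenchymal and 0 other S100 genes. With the replicate block 1 EF-hand comparison gene, 2 macrophage genes, 1 muscle gene and 0 mesenchymal or Schwann cell genes passed. With the lowest 30% of genes left out 0 mesenchymal genes passed. Twist1, the mesenchymal gene called over all arrays, was among those left out and was not tested there. At a threshold of 0.10, 3 binding partners, 2 each of the neutrophil, mesenchymal and Schwann cell genes, and 1 each of the T and NK cell and endothelial genes passed. Same-numbered arrays of the groups did not deviate together (correlations of -0.168, -0.0935 and -0.0812). With 3 arrays per group and vector 1 apart from the rest, this cannot show whether samples of the same number were paired. With the replicate block S100a4 changed by -0.95 (limma adjusted p = 0.0368). Values that turned sign did not pass before or after. With 1 array left out, the changes ran from -0.23 (without miR-34a 1) to 0.26 for S100a3, from -0.012 to 0.040 for S100a6, from -0.16 to 0.25 for S100a13, from -0.19 to 0.046 for S100a5, from -0.52 to 0.80 for S100g, from -0.0060 to 0.076 for Anxa2, from -0.0043 to 0.12 for Ahnak, from -0.013 to 0.26 for Fgf1 and from -0.091 to 0.063 for Sugt1. With arrays centred on their medians S100a6 was -0.0038 and S100a13 -0.013. With array weights S100a5 was 0.032 and S100g -0.54. With the mean of all probe sets Ahnak was -0.40, Fgf1 -0.25 and Sugt1 0.047, so the probe sets of each of these genes differed in their change. Fits without 1 array have fewer samples, and the cause of the remaining shifts was not tested.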
